A study of Homo sapiens with 9 samples.

Results

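Proteins of the BCL2 family decide whether the outer membrane of mitochondria is breached during cell death, and the RNAs of 10 of their genes are described here in HT1080 cells, a human fibrosarcoma line. The genes were chosen by name: BCL2A1, BCL2L1, MCL1, BCL2, BAX, BAK1, BID, BCL2L11, BBC3 and PMAIP1. BCL2A1 was on the list because its array value was lower in cells with methylthioadenosine phosphorylase (MTAP), so that difference is given as a description without a test. A probe set, a group of short probes read together as 1 value for a transcript, counted as a member if the platform annotation gave it 1 of these symbols alone and it had values. There were 20 such probe sets of 17466 tested in all, and they covered 9 of the 10 genes (of 9453 genes with values). MCL1 and BCL2L11 had 4 each, BID had 3, BCL2L1, BAX and PMAIP1 had 2 each, and BCL2A1, BCL2 and BAK1 had 1 each. The only probe set with values that carries BBC3 is annotated to several genes and was left unnamed. On the platform 30 probe sets carried a member's symbol alone, and the 10 without values could not be followed. By the RefSeq gene table, BCL2A1 lies on chromosome 15, BCL2L1 on 20, MCL1 on 1, BCL2 and PMAIP1 on 18, BAX on 19, BAK1 on 6, BID on 22 and BCL2L11 on 2.

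There were 3 groups of 3 arrays. The first was MTAP-positive HT1080 cells given MT-DADMe-ImmA, a tight-binding inhibitor of MTAP, at 10 µM for the 48 hours before harvest. The second was untreated MTAP-positive cells and the third untreated MTAP-negative cells. All were grown in DMEM without reaching confluence, and each group is described as biological triplicates. The sources used here do not say how MTAP came to be present in the MTAP-positive cells, or whether either kind of cell is 1 clone. MTAP and any other difference between these kinds of cell therefore cannot be told apart. Where the text below says with MTAP, it means MTAP-positive against MTAP-negative cells. MTAP starts the salvage of methionine and adenine from methylthioadenosine, a by-product of polyamine synthesis.

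The family has 3 kinds of members. BCL2, BCL2L1 (BCL-XL), MCL1 and BCL2A1 (BFL1) hold the death programme back by binding their relatives. BAX and BAK1 form pores in the outer mitochondrial membrane and let cytochrome c out. BID, BCL2L11 (BIM), PMAIP1 (NOXA) and BBC3 (PUMA) share a short helix, BH3, through which they neutralise the inhibitors or switch on the pore formers. Many of these genes are controlled by transcription: BCL2A1 is a known target of NF-kB, BCL2L11 of FOXO factors, and PMAIP1 and BBC3 of p53.

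The promoter windows of BCL2A1 and BCL2L11 are shown because these genes had the largest differences between groups among the members, in opposite directions. The motifs below were chosen with these results known. Each window runs from 250 bases before to 50 bases after a transcription start, as given by RefSeq for GRCh38.p14, and is written 5′ to 3′ on the gene's own strand. Capitals mark matches, on either strand, to 5 motifs: GTAAACA (the FOXO core), TGANTCA (AP-1), an NF-kB form (3 G, any 2 bases, 2 T, any base, 2 C), CACGTG (an E-box) and GGGCGG (a GC box). No match overlapped another. The BCL2A1 window lies on the minus strand at chr15:79971147-79971446 and the BCL2L11 window on the plus strand at chr2:111120664-111120963.
BCL2A1: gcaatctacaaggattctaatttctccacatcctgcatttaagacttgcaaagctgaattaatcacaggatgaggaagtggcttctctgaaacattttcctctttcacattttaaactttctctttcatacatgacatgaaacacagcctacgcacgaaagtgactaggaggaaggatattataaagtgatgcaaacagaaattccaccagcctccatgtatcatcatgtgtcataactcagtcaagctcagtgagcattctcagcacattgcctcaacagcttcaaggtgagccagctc
BCL2L11: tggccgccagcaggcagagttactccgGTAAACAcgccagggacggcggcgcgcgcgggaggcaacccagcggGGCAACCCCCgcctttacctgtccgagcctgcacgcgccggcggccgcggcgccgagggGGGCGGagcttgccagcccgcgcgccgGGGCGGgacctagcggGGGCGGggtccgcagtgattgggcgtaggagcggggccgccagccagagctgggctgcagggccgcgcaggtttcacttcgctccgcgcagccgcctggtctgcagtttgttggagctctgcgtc

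The BCL2A1 window held none of the 5 motifs, and 41.0% of its bases were G or C, against a median of 58.7% over all 34943 RefSeq windows of this length. The BCL2L11 window was 74.7% G or C and held 1 FOXO match, 1 NF-kB match and 3 GC boxes. The FOXO motif was found in 3.42% of all windows, the NF-kB form in 5.67% and the GC box in 44.9%. AP-1 was found in 7.72% of all windows and the E-box in 7.23%. These matches describe letters only. Windows were found for 9 of the 10 listed genes, not for MCL1.

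The array values followed the MTAP labels. The 2 MTAP probe sets with values averaged 11.20 and 11.39 with inhibitor and 11.58 and 11.63 in untreated MTAP-positive cells, against 4.56 and 3.96 in MTAP-negative cells (log2, n = 3 each). For the ACTB control, the signal at its 5′ end less that at its 3′ end (called the ACTB difference here), which becomes more negative as RNA is degraded or copied less completely, ran from -2.09 to -0.88 with inhibitor, from -1.92 to -1.03 in MTAP-positive cells and from -3.52 to -1.81 in MTAP-negative cells. The value of -3.52 belonged to MTAP-negative replicate 3, which also gave the lowest of the 9 values in 35.0% of member probe sets and in 19.4% of all probe sets. Of 8 mesenchymal marker genes 6 had values, and so did KRT8 and KRT18 of 8 epithelial markers, while none of the 8 blood, 5 endothelial or 4 melanocyte markers had values. The mean of the mesenchymal probe sets ran from 11.0 to 11.3 with inhibitor and from 10.9 to 11.1 in MTAP-positive cells and was 10.2 in MTAP-negative cells; that of the KRT8 and KRT18 probe sets ran from 11.0 to 11.1, from 11.1 to 11.5 and from 10.5 to 11.4 in the same order. Their part in the results was not tested. The deposited table kept only probe sets that reach log2 6.64 (100 on the linear scale) on at least 3 arrays, so a mean under it may be background. Values below are log2 array signals, and a level is compared only within a probe set. In bulk RNA, fewer cells with a transcript and less of it per cell cannot be told apart.

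BCL2L11, a promoter of cell death, rose in inhibitor-treated against MTAP-negative cells. BID rose slightly on 2 of its 3 probe sets with the inhibitor against untreated MTAP-positive cells, in calls that single arrays could end. BCL2A1, an inhibitor of cell death, was lower in inhibitor-treated than in MTAP-negative cells. That comparison shares the MTAP-negative arrays for which the gene was chosen and is given without a test. BCL2, BCL2L1, BAX and PMAIP1 passed in no comparison. Inhibitor-treated against MTAP-negative cells had 5 of 20 probe sets higher (the 4 of BCL2L11 and 1 of MCL1) and 2 lower (BCL2A1 and BAK1). Over all probe sets 17.4% were higher and 13.3% lower there, 30.7% in all, so the family's share of 35.0% was near the background. Without BCL2A1 it was 31.6%. The BCL2L11 probe set 1555372_at would not be in the table without its inhibitor-treated arrays, nor BCL2L1 206665_s_at without its MTAP-positive ones. Without these 2, a count added after the values were seen, there were 4 higher and 2 lower of 18, 33.3%, against 29.9% over all probe sets treated likewise. Without BCL2A1 as well there were 4 higher and 1 lower of 17, 29.4%. Of the 20, 8 had an unadjusted p under 0.05 and 8 had groups that did not overlap, against 42.2% and 50.6% of all. Without BCL2A1 both were 7 of 19, BCL2L11 1555372_at among them.

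Inhibitor-treated against untreated MTAP-positive cells had 3 of 20 higher (1 of BCL2L11 and 2 of BID) and 0 lower in limma. Over all probe sets 4.86% were higher and 5.48% lower, 10.3% in all. Of the 20, 10 had an unadjusted p under 0.05 and 7 had groups that did not overlap, against 26.9% and 33.2% of all. Without BCL2A1 these were 9 and 6 of 19. The 9 include BCL2L11 1555372_at, which would not be in the table without its inhibitor-treated arrays. With the replicate block the count of members was 5 and that of all probe sets 2726. MTAP-positive against MTAP-negative cells had, beside BCL2A1, 1 of 19 lower (BID) and 0 higher in limma. Over all probe sets 4.78% were lower and 10.0% higher, 14.8% in all. Of the 19, 5 had an unadjusted p under 0.05 and 5 had groups that did not overlap, against 31.8% and 33.7% of all.

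The median log2 difference over the 20 probe sets was 0.10 for inhibitor-treated against MTAP-negative cells, 0.26 for inhibitor-treated against MTAP-positive cells and 0.15 for MTAP-positive against MTAP-negative cells. Over all probe sets the medians were 0.03, -0.02 and 0.04 in this order. With arrays centred on their medians the family counts were 6, 3 and 2, BCL2A1 included.

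**Figure D1:**
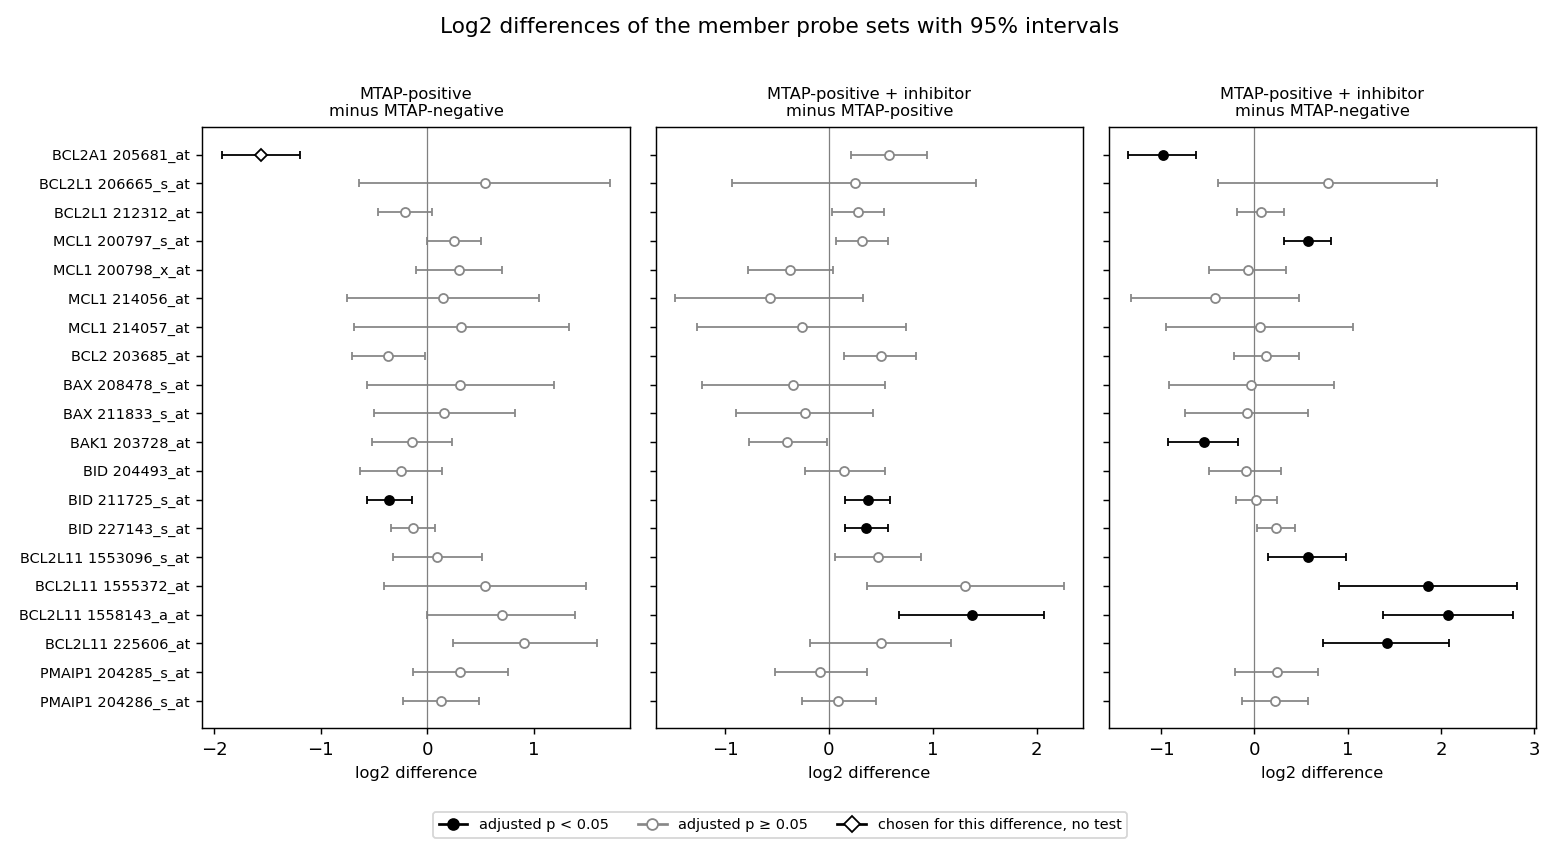
Log2 differences (horizontal axes) of the 20 member probe sets (rows) in the 3 comparisons (panels), as points with 95% intervals, filled where the Benjamini-Hochberg adjusted p of limma is below 0.05. BCL2A1 and BCL2L11 1555372_at are also filled in inhibitor-treated against MTAP-negative cells, though the text gives those differences without a test. The diamond is the BCL2A1 difference of -1.56 for which the gene was chosen; the 4 BCL2L11 probe sets lie right of 0 in inhibitor-treated against MTAP-negative cells, from 0.57 to 2.07.

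Among the death inhibitors, BCL2A1 read 7.97, 7.69 and 7.81 in inhibitor-treated cells, 7.38, 7.50 and 6.86 in MTAP-positive cells and 8.73, 8.81 and 8.89 in MTAP-negative cells (replicates 1 to 3 of each). No array of 1 group reached the range of another, with the inhibitor-treated arrays between the others. BCL2A1 was 2.96-fold lower in MTAP-positive than in MTAP-negative cells, a log2 difference of -1.56 ± 0.16 (SE), which is the difference it was chosen for. With inhibitor it differed by 0.58 ± 0.16 from untreated MTAP-positive cells, which did not pass, and was higher in 3 of 3 same-numbered pairs. Against MTAP-negative cells the inhibitor-treated arrays were lower by 1.98-fold, a log2 change of -0.98 ± 0.16. Both of these comparisons share arrays with the one that chose the gene, the first its MTAP-positive and the second its MTAP-negative arrays. The choice can move both differences in these directions, so they are given as descriptions without a test. The difference of 0.58 was 0.71 without MTAP-positive replicate 2 and 0.39 without MTAP-positive replicate 3.

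MCL1, a short-lived inhibitor of BAK1 and BAX, gave different answers from its 4 probe sets. On 200797_s_at it read 12.12, 11.97 and 12.13 with inhibitor, 11.85, 11.57 and 11.84 in MTAP-positive cells and 11.56, 11.41 and 11.53 in MTAP-negative cells. These 3 groups also lay apart, in ascending order from MTAP-negative through MTAP-positive to inhibitor-treated cells. On this probe set MCL1 rose 1.49-fold in inhibitor-treated against MTAP-negative cells (0.57 ± 0.11, adjusted p = 0.0045). The single steps were 0.32 ± 0.11 for the inhibitor (adjusted p = 0.0973) and 0.25 ± 0.11 for MTAP-positive against MTAP-negative cells (adjusted p = 0.151). With the replicate number as a block the inhibitor step passed (adjusted p = 0.0453). The other 3 MCL1 probe sets passed in no comparison, with inhibitor differences from MTAP-positive cells of -0.37 ± 0.18 (200798_x_at), -0.57 ± 0.40 (214056_at) and -0.26 ± 0.45 (214057_at). Over the 9 arrays these 3 ranged from 9.78 to 10.73, from 6.31 to 7.94 and from 6.13 to 8.19. Averaging all 4 left a difference of 0.03 between inhibitor-treated and MTAP-negative cells (adjusted p = 0.916).

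BCL2L1 was read by 2 probe sets that passed in no comparison. On 212312_at it read 9.70, 9.92 and 9.86 with inhibitor, 9.62, 9.52 and 9.52 in MTAP-positive cells and 9.94, 9.71 and 9.64 in MTAP-negative cells. The MTAP-positive arrays were the lowest, and the 95% interval of the inhibitor difference ran from 0.03 to 0.53 (0.28 ± 0.11, adjusted p = 0.147). The other BCL2L1 probe set, 206665_s_at, lay around log2 6.64, from 4.79 to 7.43, with its lowest value in MTAP-negative replicate 3. BCL2 itself, the founding member, read 7.17, 7.06 and 7.36 with inhibitor, 6.69, 6.45 and 6.95 in MTAP-positive cells and 6.90, 7.28 and 7.01 in MTAP-negative cells. Its inhibitor-treated arrays lay above all MTAP-positive arrays, but the difference of 0.50 ± 0.15 did not pass (adjusted p = 0.0711). Without MTAP-positive replicate 3 the BCL2 difference was 0.62 (adjusted p = 0.0394).

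**Figure D2:**
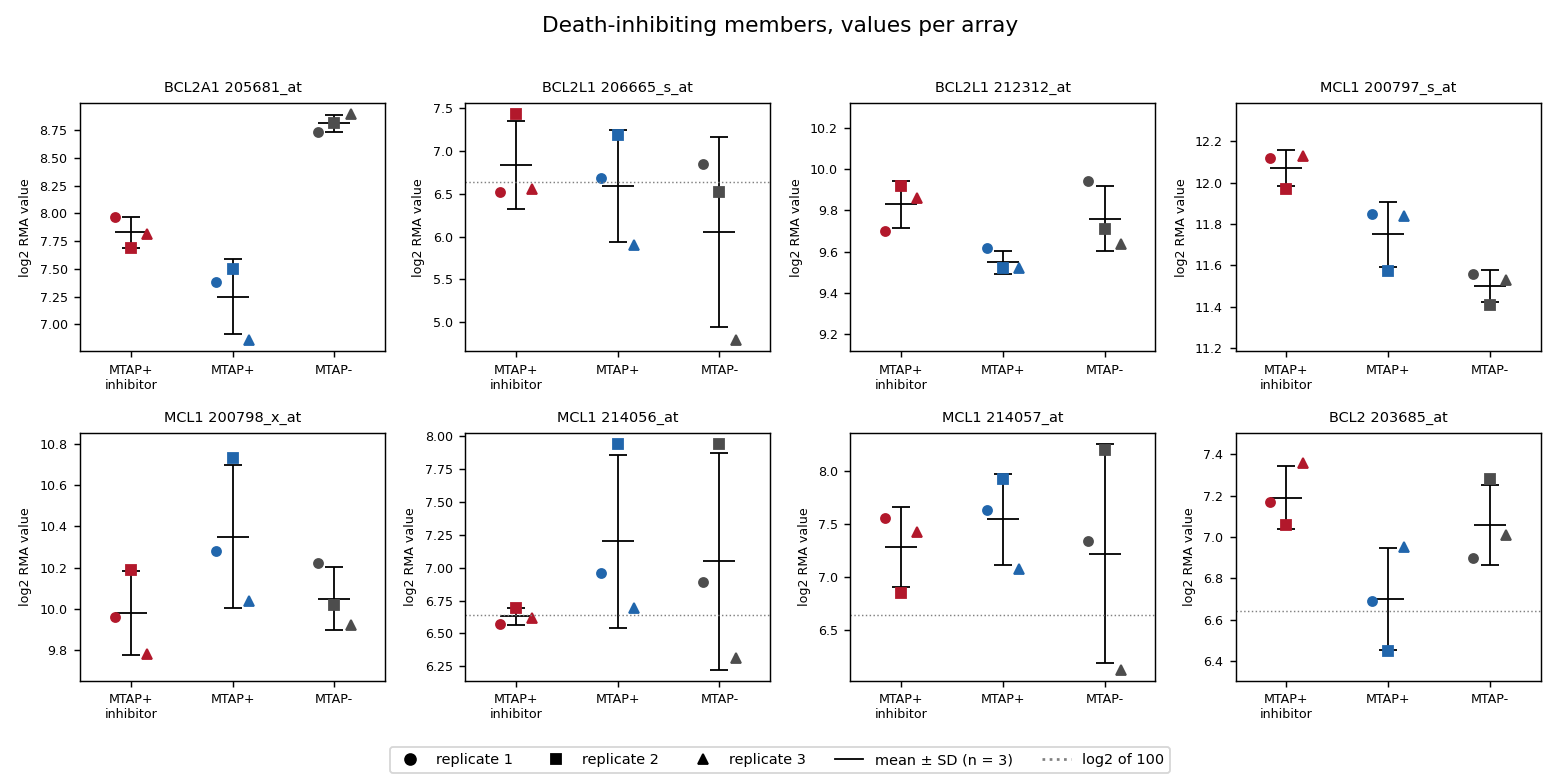
Log2 array values (vertical axes) of the 8 probe sets of death inhibitors in the 3 groups (horizontal axes), with a symbol for each replicate, bars for the mean ± SD (n = 3) and a dotted line at log2 of 100. BCL2A1 and MCL1 200797_s_at separate the 3 groups, BCL2A1 with MTAP-negative cells on top (8.73 to 8.89) and MCL1 with inhibitor-treated cells on top (11.97 to 12.13).

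Of the pore formers, BAK1 fell in 1 comparison. BAX was read by 208478_s_at and 211833_s_at, which passed in no comparison. On 208478_s_at it read 8.03, 7.79 and 7.50 with inhibitor, 8.15, 8.29 and 7.90 in MTAP-positive cells and 8.46, 8.27 and 6.68 in MTAP-negative cells. The value of 6.68, and 7.99 on 211833_s_at, which ranged up to 9.33, came from MTAP-negative replicate 3, the array with the ACTB difference of -3.52. Inhibitor-treated less MTAP-negative cells gave -0.03 ± 0.39 for BAX on 208478_s_at with that array (adjusted p = 0.961) and -0.59 without it (adjusted p = 0.0436). On 211833_s_at the difference was -0.08 ± 0.29 with the array and -0.47 without it (adjusted p = 0.0926).

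BAK1 read 7.30, 6.81 and 7.06 with inhibitor, 7.78, 7.31 and 7.27 in MTAP-positive cells and 7.68, 7.61 and 7.51 in MTAP-negative cells. The inhibitor-treated arrays lay below all MTAP-negative arrays and overlapped the MTAP-positive ones. BAK1 fell 1.46-fold in inhibitor-treated against MTAP-negative cells (-0.54 ± 0.17, adjusted p = 0.0348). The call needed every MTAP-negative array (adjusted p = 0.0955, 0.0827 and 0.0568 on dropping replicate 1, 2 or 3) and was also lost on dropping inhibitor-treated replicate 2 (-0.42, 0.12) or 3 (0.0877), and with the ACTB difference as a covariate (0.0999). The inhibitor difference from MTAP-positive cells was -0.40 ± 0.17 (adjusted p = 0.161).

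BCL2L11 encodes BIM, which can bind every inhibitor of the family, and it had the largest rise among the members. On 1558143_a_at it read 9.20, 9.15 and 9.0 with inhibitor, 7.37, 7.21 and 8.64 in MTAP-positive cells and 7.14, 6.92 and 7.07 in MTAP-negative cells. On 225606_at it read 8.67, 8.57 and 8.43 with inhibitor, 7.89, 7.39 and 8.87 in MTAP-positive cells and 7.13, 6.99 and 7.29 in MTAP-negative cells. Inhibitor-treated arrays were uniformly high and MTAP-negative arrays uniformly low, while MTAP-positive replicate 3 lay close to or above the inhibitor-treated arrays. The other 2 arrays of its group lay between the inhibitor-treated and MTAP-negative ranges on both probe sets.

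The same array was the highest of its group on the remaining BCL2L11 probe sets. On 1555372_at, which reached log2 6.64 on the 3 inhibitor-treated arrays and on MTAP-positive replicate 3 alone, the values were 6.90, 8.0 and 7.27 with inhibitor, 5.29, 5.79 and 7.14 in MTAP-positive cells and 5.50, 5.60 and 5.49 in MTAP-negative cells. On 1553096_s_at they were 8.0, 7.63 and 8.0 with inhibitor, 7.42, 7.11 and 7.67 in MTAP-positive cells and 7.61, 7.10 and 7.21 in MTAP-negative cells. The SD of MTAP-positive arrays was 0.783 on 1558143_a_at, against 0.105 with inhibitor and 0.113 in MTAP-negative cells. MTAP-positive replicate 3 also had the lowest BCL2A1 value of all 9 arrays, 6.86.

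Against MTAP-negative cells, BCL2L11 rose in inhibitor-treated cells on the 3 probe sets that would be in the table without the inhibitor-treated arrays. The rise was 4.20-fold on 1558143_a_at (2.07 ± 0.31, adjusted p = 0.00126) and 2.67-fold on 225606_at (1.42 ± 0.30, adjusted p = 0.00709). It was 1.48-fold on 1553096_s_at (0.57 ± 0.19, adjusted p = 0.0435). On 1555372_at the difference was at least 1.68-fold (1.86 on the log2 scale), given as a description without a test. The call on 1553096_s_at was lost in 8 of 17 alternatives. It did not survive dropping MTAP-negative replicate 2 (adjusted p = 0.134) or 3 (0.115), MTAP-positive replicate 1 (0.0536) or inhibitor-treated replicate 1 (0.126) or 3 (0.131). It was also lost with arrays centred on their medians (0.0561), a repeated quantile normalisation (0.0663) or the ACTB covariate (0.0677). On 1558143_a_at and 225606_at it was kept in all of their 19 and 18 alternatives. For each of these 3 probe sets, 1 alternative is the average of all BCL2L11 probe sets, 1555372_at among them. That average is a description without a test.

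Against untreated MTAP-positive cells, BCL2L11 rose on 1 of these 3 probe sets, 2.59-fold on 1558143_a_at (1.38 ± 0.31, adjusted p = 0.0242). The others gave 0.50 ± 0.30 (225606_at, adjusted p = 0.324) and 0.47 ± 0.19 (1553096_s_at, 0.135, or 0.0452 with the replicate block), and 1555372_at differed by 1.31. Without MTAP-positive replicate 3 these differences were 1.83 on 1558143_a_at (adjusted p = 7.28e-04), 0.91 on 225606_at (0.0148) and 0.61 on 1553096_s_at (0.0821). The call on 1558143_a_at was lost without MTAP-positive replicate 1 (adjusted p = 0.0799) or 2 (0.0597), without inhibitor-treated replicate 1 (0.0729), 2 (0.0675) or 3 (0.0787), with only the 2 groups fitted (0.0616) or with array weights (0.0565). Averaging the 4 probe sets, 1555372_at among them, gave 0.92, which is a description without a test.

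Between MTAP-positive and MTAP-negative cells no BCL2L11 probe set passed. The differences were 0.91 ± 0.30 on 225606_at (adjusted p = 0.0715), 0.70 ± 0.31 on 1558143_a_at (0.157), 0.54 ± 0.42 on 1555372_at and 0.09 ± 0.19 on 1553096_s_at. On 225606_at the difference passed with the replicate block (adjusted p = 0.0462), with array weights (1.33, adjusted p = 0.0114) and without MTAP-positive replicate 2 (1.24, adjusted p = 0.0133). On 1558143_a_at it passed with array weights (1.10, adjusted p = 0.0342). Without MTAP-positive replicate 3 the 4 differences were 0.50, 0.25, 0.01 and -0.04 in the same order.

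BID, which links death receptors to mitochondria once caspase-8 has cut it, had its lowest group mean in MTAP-positive cells on all 3 probe sets. On 211725_s_at it read 9.39, 9.14 and 9.24 with inhibitor, 8.88, 8.83 and 8.94 in MTAP-positive cells and 9.22, 9.23 and 9.27 in MTAP-negative cells. On 227143_s_at it read 8.42, 8.46 and 8.44 with inhibitor, 8.05, 8.0 and 8.17 in MTAP-positive cells and 8.23, 8.16 and 8.23 in MTAP-negative cells. The third probe set, 204493_at, ranged from 7.99 to 8.80. On the first 2, every inhibitor-treated array lay above every MTAP-positive array. The changes were small.

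With inhibitor BID rose 1.30-fold on 211725_s_at (0.38 ± 0.10, adjusted p = 0.0398) and 1.29-fold on 227143_s_at (0.36 ± 0.09, adjusted p = 0.0346). Between MTAP-positive and MTAP-negative cells it fell by 0.36 ± 0.10 on 211725_s_at (adjusted p = 0.0392). On 227143_s_at this difference was -0.13 ± 0.09 (adjusted p = 0.352), and the third probe set, 204493_at, passed in no comparison (from -0.25 to 0.15). The 2 comparisons share the MTAP-positive arrays. Leaving out any 1 of the 9 arrays ended the call of the fall (adjusted p from 0.0502 to 0.107). The rise on 211725_s_at was lost on leaving out any array but MTAP-negative replicate 2 (from 0.0539 to 0.134). The rise on 227143_s_at was lost without MTAP-negative replicate 1, MTAP-positive replicate 1 or 2, or inhibitor-treated replicate 1, 2 or 3 (from 0.0559 to 0.123). The ACTB covariate ended these calls too, at adjusted p = 0.25 for the fall and 0.059 and 0.057 for the rises on 211725_s_at and 227143_s_at.

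PMAIP1, whose product NOXA binds MCL1 and BCL2A1, passed in no comparison on either probe set. On 204285_s_at it read 11.11, 10.98 and 11.52 with inhibitor, 11.05, 11.68 and 11.12 in MTAP-positive cells and 11.17, 10.94 and 10.79 in MTAP-negative cells. The groups overlapped throughout, and 204286_s_at ranged from 10.60 to 11.21. The 95% interval of the inhibitor difference ran from -0.52 to 0.37 on this probe set and from -0.26 to 0.45 on 204286_s_at.

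**Figure D3:**
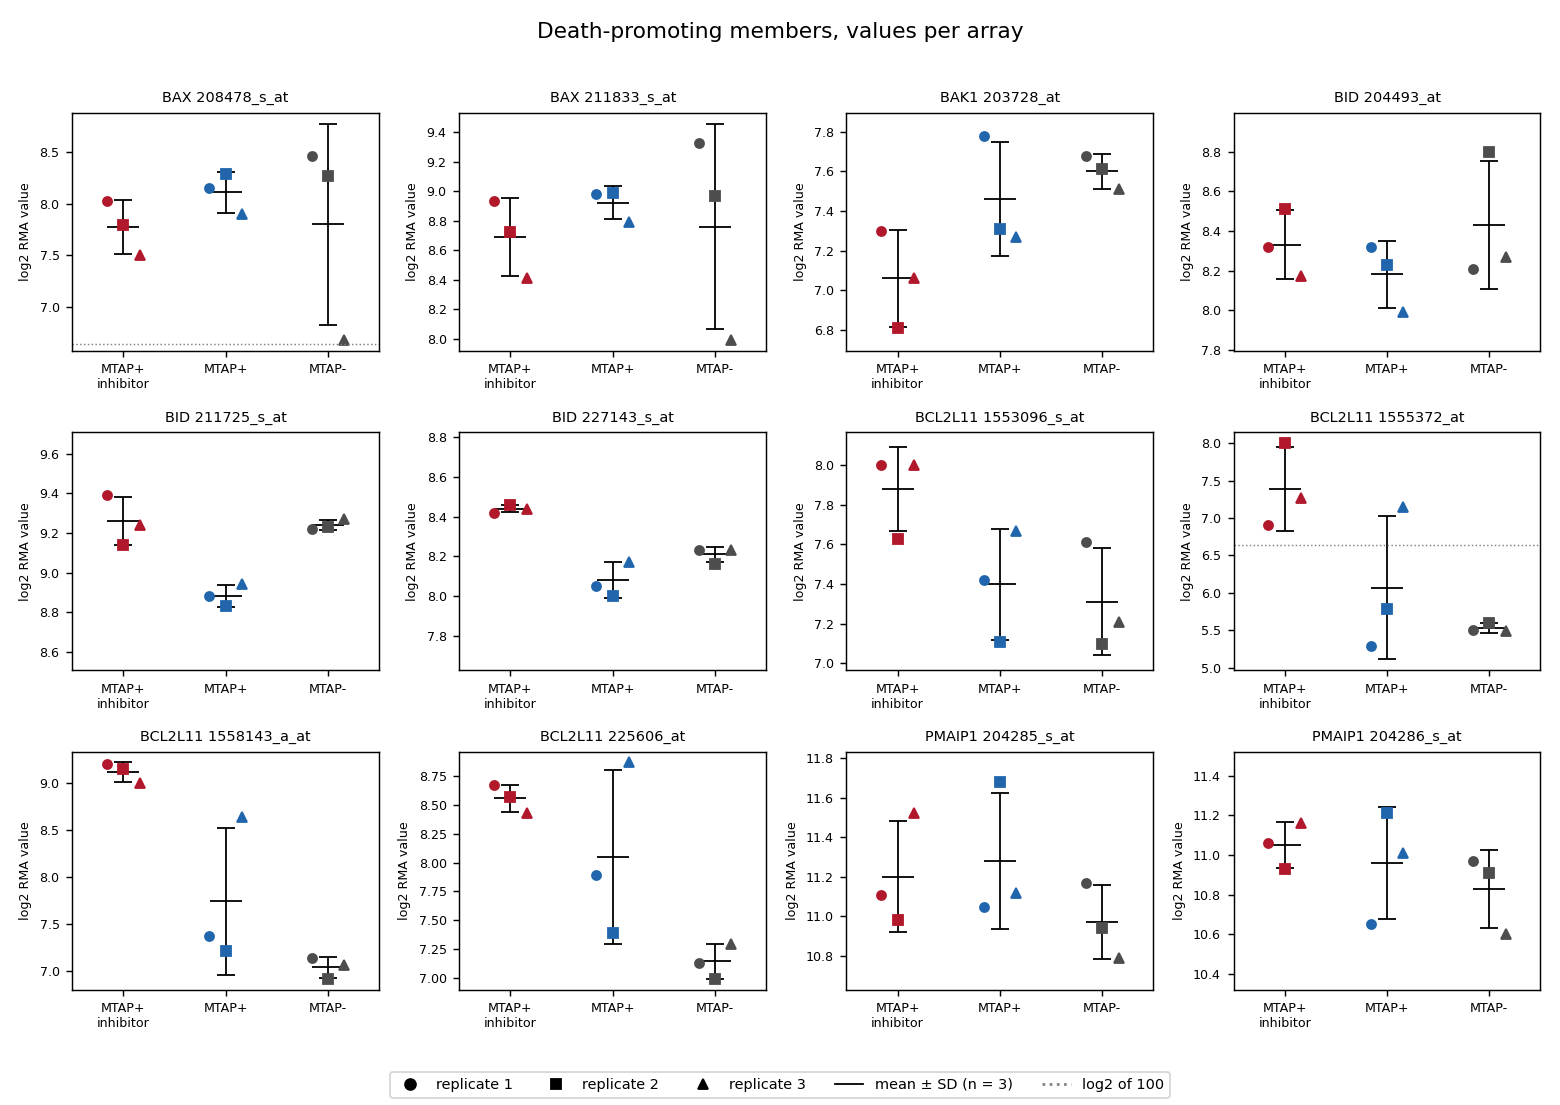
Log2 array values (vertical axes) of the 12 probe sets of pore formers and BH3-only genes in the 3 groups (horizontal axes), with a symbol for each replicate, bars for the mean ± SD (n = 3) and a dotted line at log2 of 100. On BCL2L11 1558143_a_at inhibitor-treated arrays lie between 9.0 and 9.20 and MTAP-negative arrays between 6.92 and 7.14, while MTAP-positive replicate 3 is at 8.64 and BAX 208478_s_at has its lowest value, 6.68, in MTAP-negative replicate 3.

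Low values of several members fell on the array with the most negative ACTB difference. In MTAP-negative replicate 3, BCL2L1 206665_s_at read 4.79, MCL1 214057_at 6.13 and BAX 208478_s_at 6.68, each the lowest of 9. Leaving this array out turned the differences between MTAP-positive and MTAP-negative cells, none of which passed, to -0.09 for BCL2L1 206665_s_at, against 0.54 with it, to -0.22 for MCL1 214057_at, against 0.32, and to -0.25 for BAX 208478_s_at, against 0.31. PMAIP1 was also lowest there on both probe sets, at 10.79 on 204285_s_at and 10.60 on 204286_s_at. MTAP-positive replicate 3, with the high BCL2L11 and low BCL2A1 values, had an ACTB difference of -1.92, against -1.33 and -1.03 in the other arrays of its group. Its part in those values was not tested.

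**Figure D4:**
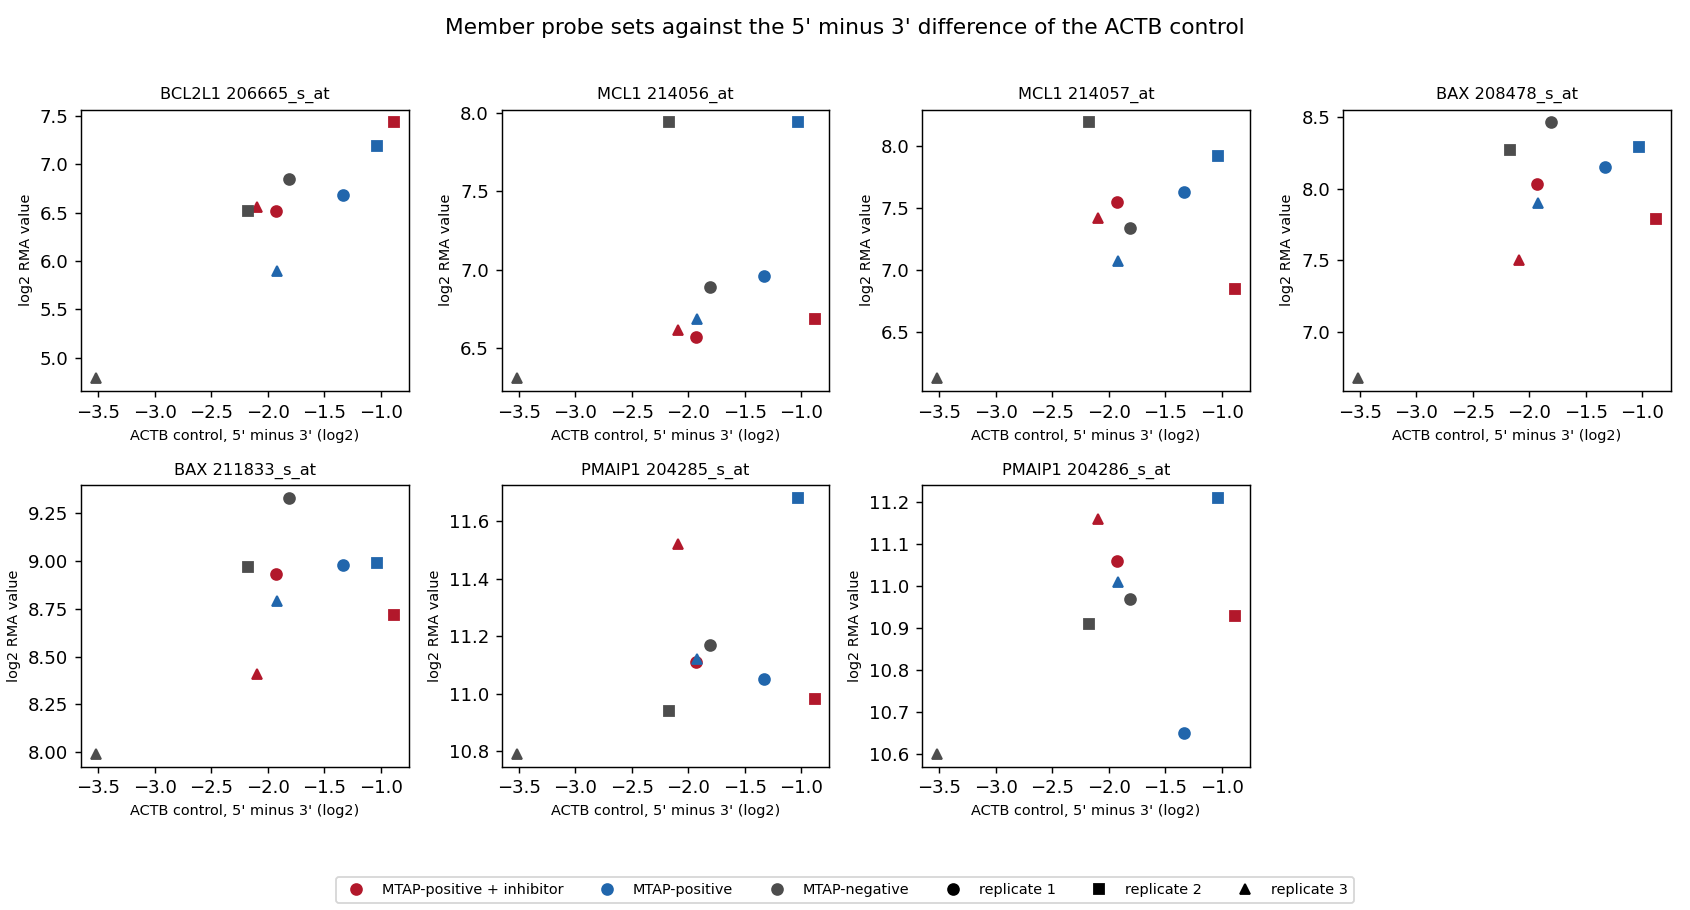
Log2 values (vertical axes) of 7 member probe sets (BCL2L1, MCL1, BAX and PMAIP1) on the 9 arrays against the ACTB difference in log2 (horizontal axes), coloured by group and with a symbol for each replicate. They are all member probe sets for which MTAP-negative replicate 3, at -3.52, has the lowest value, such as 4.79 for BCL2L1 206665_s_at.

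The pattern of BCL2A1 over the 9 arrays was most like that of probe sets for DDX49 (Pearson r = 0.977), TOMM70 (0.975), PRB1 (0.974), SAAL1 (0.971) and WWC1 (0.969). These correlations describe 9 arrays in 3 groups and carry no test. DDX49 averaged 6.51 with inhibitor and 6.25 in MTAP-positive cells, and every array of these groups lay under log2 6.64. In MTAP-negative cells it averaged 7.13, and only these arrays kept it among the probe sets with values. Its values in the other groups may therefore be background. WWC1, a regulator of the Hippo pathway, averaged 7.64 with inhibitor, 7.39 in MTAP-positive cells and 8.34 in MTAP-negative cells, the same order as BCL2A1. TOMM70, a receptor of the mitochondrial import machinery, ran in the same order over a narrow range, at 9.05, 8.96 and 9.19.

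A list of other BCL2 relatives and of genes named after BCL2 had values for 12 of 16 listed genes, on 21 probe sets. The lists from here on were chosen with results known, and their shares are read against 30.7% of all probe sets for inhibitor-treated against MTAP-negative cells, 10.3% for inhibitor-treated against MTAP-positive cells and 14.8% for MTAP-positive against MTAP-negative cells. Between inhibitor-treated and MTAP-negative cells 4 of these 21 were higher and 3 lower (33.3%). The 4 higher include the probe sets of BMF and BIK described next, so this share is a description only. BMF, a BH3-only gene, was higher by at least 1.12-fold and BIK, another, by at least 1.24-fold, both on probe sets that would not be in the table without their inhibitor-treated arrays, so that no test is given. BCLAF1 on 214499_s_at fell by 0.97 ± 0.27 and BNIP2 by 0.58 ± 0.15. Both are named for an association with BCL2 proteins and are not members of the family. In MTAP-positive against MTAP-negative cells 1 was higher and 0 lower in limma (4.76%), with 6 of 21 at an unadjusted p under 0.05. The 1 higher was BNIP3 on 201848_s_at, a mitophagy receptor induced by hypoxia (0.71 ± 0.13, adjusted p = 0.00851). BNIP3 on 201849_at did not pass there. The inhibitor against untreated MTAP-positive cells gave 0 in either direction in limma, with 5 at an unadjusted p under 0.05.

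Downstream of the family, 13 of 19 effector and caspase genes had values, on 17 probe sets, and 0 were higher in any comparison in limma (8 for inhibitor-treated against MTAP-negative cells, 5 for inhibitor-treated against MTAP-positive cells and 6 for MTAP had an unadjusted p under 0.05 in either direction). Of the 17, 5 fell in inhibitor-treated against MTAP-negative cells (29.4%). They included DFFA, the inhibitor of the DNA-cutting caspase-activated nuclease (-1.20 ± 0.17, adjusted p = 0.00109), cytochrome c, CYCS (-0.60 ± 0.11, adjusted p = 0.00303), the outer membrane channel VDAC3 (-0.45 ± 0.10) and CASP2 (-0.42 ± 0.12). With MTAP 2 of 17 fell (11.8%), DFFA among them (-0.86 ± 0.17, adjusted p = 0.0113), and with inhibitor against MTAP-positive cells 1 fell (5.88%), VDAC3 on 208846_s_at (-0.47 ± 0.10, adjusted p = 0.0184).

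Caspase inhibitors had 12 probe sets of 4 genes, of which 0 passed with MTAP in limma (0 at an unadjusted p under 0.05), 1 was lower with inhibitor against MTAP-positive cells (8.33%) and 2 were lower against MTAP-negative cells (16.7%). BIRC5 (survivin), which also serves in mitosis, fell on 202094_at 2.01-fold with inhibitor against MTAP-positive cells (-1.01 ± 0.18, adjusted p = 0.0103) and 2.31-fold against MTAP-negative cells (-1.21 ± 0.18, adjusted p = 0.00126), while BIRC2 differed by -0.15 ± 0.16 and -0.44 ± 0.16 in the same order and did not pass. No other BIRC5 probe set, 202095_s_at among them, passed with inhibitor against MTAP-positive cells.

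Among death receptors and their adaptors, on 15 probe sets of 8 genes, 3 rose and 1 fell with MTAP (26.7%). TNFRSF21 (DR6) rose on 214581_x_at by 1.94 ± 0.18 (adjusted p = 4.02e-04) and the TNF receptor TNFRSF1A by 0.86 ± 0.14, while FAS fell by 0.54 ± 0.14 (adjusted p = 0.0315). With inhibitor against MTAP-positive cells 3 fell and 0 rose (20.0%, with 3 at an unadjusted p under 0.05 in limma), among them the adaptors TRADD (-0.59 ± 0.11, adjusted p = 0.0117) and FADD (-0.48 ± 0.11, adjusted p = 0.0238). Inhibitor-treated against MTAP-negative cells had 3 of 15 higher and 3 lower (40%), TNFRSF21 (1.96 ± 0.18) and TRADD (-0.45 ± 0.11) among them. The TRAIL receptor TNFRSF10B differed by -0.07 ± 0.11 with inhibitor against MTAP-positive cells and did not pass.

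Of genes that govern MCL1 protein turnover, on 15 probe sets of 7 genes, 0 passed with MTAP (0 at an unadjusted p under 0.05 in limma) and 0 with inhibitor against MTAP-positive cells (3 unadjusted). Against MTAP-negative cells 2 fell with inhibitor (13.3%), the ubiquitin ligase subunit BTRC (-0.61 ± 0.12, adjusted p = 0.00491) and the deubiquitinase USP9X (-0.55 ± 0.16). The ligase HUWE1 differed by 0.03 ± 0.09 there and did not pass.

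Transcription factors known to act on these genes had 29 probe sets of 15 genes. Of these 11 were higher and 4 lower in inhibitor-treated against MTAP-negative cells, a share of 51.7% called against 30.7% over all probe sets. The list was chosen with results known and many of its probe sets share a gene, so this share is a description only. RELB, an NF-kB subunit, rose by 1.16 ± 0.14 (adjusted p = 3.89e-04), MYC by 1.26 ± 0.11 (adjusted p = 1.07e-04) and DDIT3 (CHOP), a stress-induced factor, by 1.08 ± 0.15 (adjusted p = 8.33e-04). NFKB1, another NF-kB subunit, differed by 0.02 ± 0.11 on 209239_at (adjusted p = 0.926) and STAT3 by 0.29 ± 0.14 on 208991_at (adjusted p = 0.156), and neither passed. MITF, which is known to drive BCL2A1 and BCL2 in melanocytes, fell by 1.19 ± 0.15 (adjusted p = 4.69e-04). With inhibitor against MTAP-positive cells 2 rose and 0 fell (6.9%, with 9 at an unadjusted p under 0.05 in limma): MYC by 1.02 ± 0.11 and DDIT3 by 0.85 ± 0.15. With MTAP 1 rose, RELB (0.82 ± 0.14), and 4 fell (17.2%), among them MITF (-0.82 ± 0.15) and JUN (-0.66 ± 0.15).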

How the data were processed

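Expression was measured on 9 Affymetrix arrays, and RNA was extracted, labelled and hybridised by the authors, per the labels. The authors deposited log2 signals per probe set. RMA is the method that the submitters' processing notes name, without a version or settings in the sources used here. Of 54675 probe sets listed, 37201 had no value on any array. After 8 controls were left out, 17466 were tested, 15485 with 1 gene symbol, 841 with several and 1140 with none in the platform annotation.

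Differences were fitted over all 17466 probe sets with limma 3.58.1 in R 4.3.3, with the 3 groups as levels and default eBayes, and Benjamini-Hochberg adjusted within each comparison, with 0.05 as threshold. Errors after ± are the model's SE unless given as SD. Intervals are 95%. The median SE was 0.14, and 3 arrays in a group limit the precision. p-values measure only the spread between these arrays. Folds against a group mean under log2 6.64 are counted from that level. The fit was tested on simulated data, where it met its checks on sign, bias and false calls. A first criterion, on how many of the changes put in were called, was missed and then dropped, so a difference that did not pass is not shown to be absent.

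The members and lists were chosen with earlier results of these data known. Named are all members, MTAP, up to 4 changed and 2 unchanged genes per list, and the 5 genes most correlated with BCL2A1; DDX49, PRB1 and others are named by this rule. Deviations of same-numbered arrays from their group means correlated at 0.284, 0.225 and 0.248 between MTAP-positive and MTAP-negative cells and at 0.702, 0.594 and 0.321 between inhibitor-treated and MTAP-positive cells, so the replicate number pairs these arrays. It did not pair inhibitor-treated with MTAP-negative arrays (0.2, 0.00782 and -0.00571). The alternatives changed the filter, the unit, the scaling, the block, the samples, the ACTB covariate, the weights, the prior or the arrays included. Figures were drawn with matplotlib 3.10.9.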

Additional observations from a re-analysis of the deposited data

How the results depend on the processing

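No member difference that passed in the main or the alternative setting changed its sign among 1086 alternative values of 60 member differences. A call was lost in 54 and gained in 19 of them, and 51 values that passed in neither setting changed sign. Pooled over all probe sets, MTAP-positive against MTAP-negative cells gave 2586 changed in the main setting, 1385 with only the 2 groups fitted, 851 with the ACTB covariate and 1458 to 2809 when 1 array was left out. The lowest came without MTAP-negative replicate 3, and replicate 2 gave 1630. Centring moved the share of higher calls there to 50.1% and a repeated quantile normalisation to 50.3%, against 67.7%. Inhibitor-treated against MTAP-positive cells gave 1805, with 2726 under the replicate block and 452 to 1836 when 1 array was left out. It gave 452 without inhibitor-treated replicate 3, 909 and 914 without replicates 1 and 2, and 895 without MTAP-positive replicate 1. Inhibitor-treated against MTAP-negative cells gave 5361, with 3307 for the highest probe set per gene and 3282 for the mean of a gene's probe sets, where 9453 genes and not 17466 probe sets were tested, and 3562 to 6032 when 1 array was left out (3562 without inhibitor-treated replicate 3).

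Of the 20 member probe sets, MTAP-positive against MTAP-negative cells gave 2, or 1 with the mean per gene, only the 2 groups or the ACTB covariate, 4 with array weights and 1 to 2 without 1 array (1 without any array but MTAP-positive replicate 2). BCL2A1, which was chosen for this difference, is in every one of these counts, and its part in them is no test. The other call in the main setting, BID 211725_s_at, was lost in 12 of 19 alternatives. Inhibitor-treated against MTAP-positive cells gave 3, or 5 with the replicate block, 1 with the ACTB covariate, 0 with only the 2 groups fitted (limma, 9 at an unadjusted p under 0.05) and 0 to 5 without 1 array (0 without MTAP-positive replicate 1 or any inhibitor-treated replicate, 1 without MTAP-positive replicate 2 or MTAP-negative replicate 1, 5 without MTAP-positive replicate 3). Inhibitor-treated against MTAP-negative cells gave 7, or 4 with the filter at the 40th percentile, 4 with the highest probe set and 3 with the mean per gene, and 5 to 7 without 1 array. BCL2A1 and BCL2L11 1555372_at are among the 7, and the mean per gene of BCL2L11 holds 1555372_at too. For inhibitor-treated against MTAP-positive cells, the 1 without MTAP-positive replicate 2 is BCL2A1. The 5 without MTAP-positive replicate 3 include BCL2L11 1555372_at. Their part in these counts is no test. The replicate block changed the calls of BCL2L11 225606_at with MTAP and of BCL2L11 1553096_s_at and MCL1 200797_s_at with inhibitor, and no other member call. Where the causes are not shown by the number of features or arrays, the cause was not tested. Signal near log2 6.64 limits BCL2L1 206665_s_at, BCL2L11 1555372_at and MCL1 214056_at.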
